A study of Mus musculus with 9 samples.

Results

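The enzymes that build cholesterol and fatty acids, with the proteins that control them, were examined in glioblastoma cells and in the astrocytes they had been grown with. The group held 36 genes, chosen by name for their role in these pathways, among 49315 gene IDs in the count table. The choice was made with earlier results of these data known. All 36 were found in the table and all passed the filter on low counts in each comparison. Positions are given on the genome build GRCm38.

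Libraries came from co-cultures of SB28, a mouse glioblastoma cell line, with primary neonatal astrocytes of mito::mKate2 mice on C57BL6, in which a CAG promoter drives a red fluorescent protein, mKate2, targeted to mitochondria. After 2 days the cells were sorted into astrocytes, SB28 cells without the astrocyte label (mKate2−) and SB28 cells that had taken it up (mKate2+), with 3 libraries per group and no further treatment. All 3 groups shared the co-culture and its medium, DMEM F12 with EGF and FGF at 20 ng/ml and, in the labels, 2% serum and 5% N2 supplement, where the paper's methods give other shares of serum and N2. Libraries of SB28 cells or astrocytes grown alone were not analysed here. Total counts ran from 24454561 to 39287841 per library, and every member was counted in every library, the lowest being 62 reads for Acacb. The 3 libraries of a group came from distinct co-cultures, but all SB28 libraries are of 1 cell line. The p-values between SB28 populations therefore measure the spread between cultures of that line, and those against astrocytes also the spread between the 3 astrocyte libraries.

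Cholesterol is made from acetyl-CoA by way of mevalonate, farnesyl pyrophosphate, squalene and lanosterol. Fatty acids are made from the same acetyl-CoA by carboxylation to malonyl-CoA and repeated elongation, followed by further elongation and desaturation. Both routes are switched on by the sterol regulatory element binding proteins, membrane-bound transcription factors that SCAP escorts to the Golgi for cleavage when sterols are low and that INSIG proteins hold back when sterols are plentiful. In the brain, where lipoproteins from blood do not enter, astrocytes are a main source of cholesterol for other cells.

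The labelled cell types were first checked against marker genes, on the CPM scale (the gene's share of the library total, scaled so that the whole library sums to 1000000). Slc1a3, an astrocyte glutamate transporter, was at 173, 177 and 236 CPM in the astrocyte libraries and between 0.56 and 2.38 CPM in the 6 SB28 libraries. Aldh1l1, a folate enzyme used as an astrocyte marker, was at 140, 111 and 172 CPM in astrocytes. Gjb6, the gene of connexin 30, was at 0 in all 9 libraries, and Gfap reached 8.83, 3.42 and 19.4 CPM in astrocytes. The astrocyte libraries also held Olig1, a transcription factor of the oligodendrocyte lineage, at 541, 241 and 304 CPM, whereas Mog, Mag (both of mature oligodendrocytes) and Cx3cr1 (of microglia) were at most 0.221, 0.067 and 0.0409 CPM in any library. The 10 astrocyte markers summed to 846 ± 337 CPM in astrocytes, 142 ± 18.5 in mKate2− cells and 137 ± 17 in mKate2+ cells (SD, n = 3), and Sox9 with Glul, genes that are not particular to astrocytes, made up most of the SB28 sums.

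Astrocyte replicate 3 held more Aqp4, Aldoc and Slc1a2 than the other astrocyte libraries, with Aldoc at 55.6, 33.8 and 362 CPM. Among the SB28 libraries, mKate2+ replicate 2 stood apart by gene length. Against the mean of the other SB28 libraries its median log2 difference was 0.14 for the quartile of shortest genes and -0.30 for the longest, while the median over the 36 members was -0.04. The calls of the 36 genes against astrocytes and the comparison of the SB28 populations are given with and without it.

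Taken over whole libraries, the 36 genes made up more of the RNA in SB28 cells than in astrocytes. Their summed level was 8122 ± 658 CPM in astrocytes, 13331 ± 1375 in mKate2− cells and 12737 ± 528 in mKate2+ cells (SD, n = 3), or 0.812%, 1.33% and 1.27% of counts. Each SB28 library, from 12182 to 14906 CPM, lay above each astrocyte library, from 7482 to 8796 CPM. Scd2, a stearoyl-CoA desaturase that introduces the first double bond into saturated fatty acids, had the most counts of the members and alone gave 26.4%, 31.9% and 31.8% of the 3 sums. Without it the sums were 5977, 9081 and 8692 CPM, in the same order.

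In CPM per kb of exon, which sets genes of different length on 1 scale, Scd2 was also the highest member in each group, at 393, 778 and 740. The next in astrocytes were Scd1, its paralog, at 121 and Insig1, which retains SCAP in the endoplasmic reticulum, at 107 CPM per kb. In SB28 cells the second place was taken by Acly, which releases acetyl-CoA from citrate in the cytosol, at 138 CPM per kb in mKate2− and 131 in mKate2+ cells, against 77.5 in astrocytes. Acacb, the acetyl-CoA carboxylase of the mitochondrial membrane, was the lowest member in each group, at 0.496, 0.300 and 0.233 CPM per kb.

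**Figure D1:**
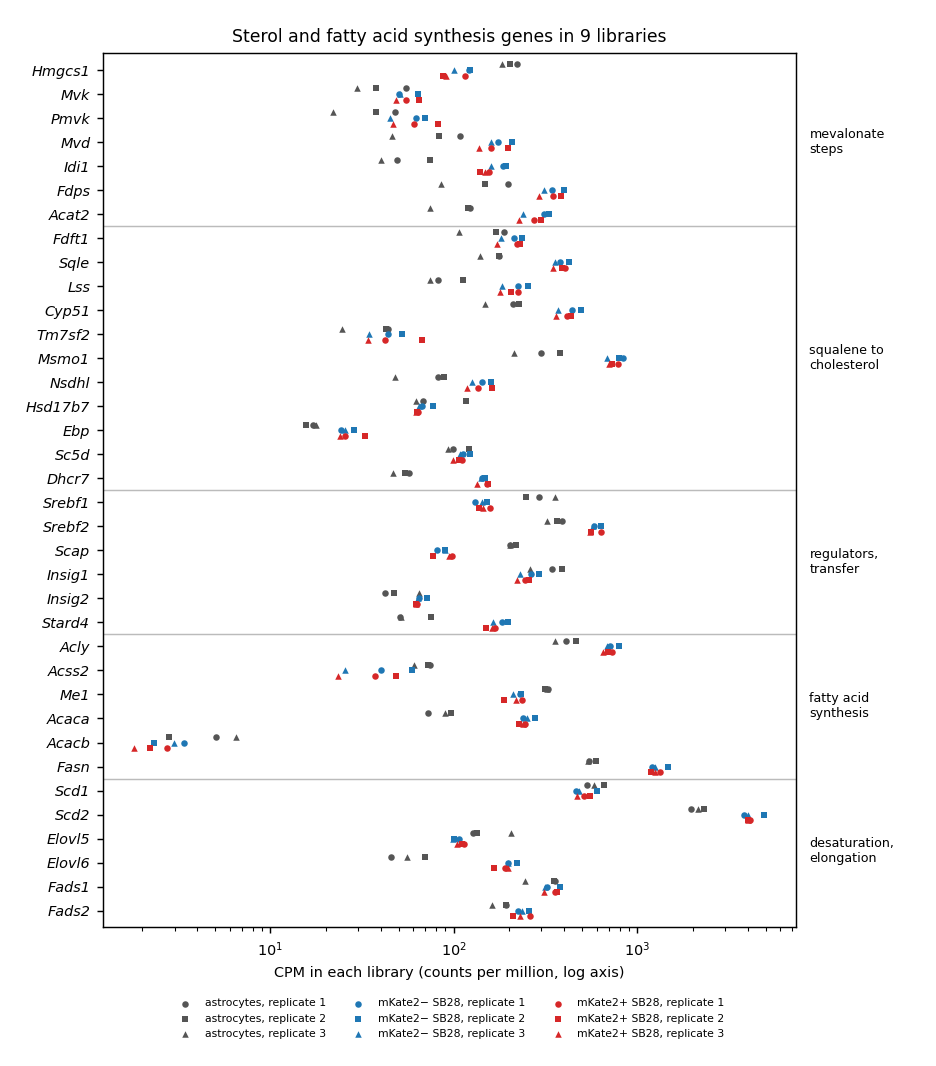
Level of each of the 36 genes in each of the 9 libraries, in CPM on a log axis, with colour for the group and symbol for the replicate number. The axis is not corrected for gene length; Acacb lies between 1.81 and 6.49 CPM and Scd2 between 1972 and 4909, and blue and red symbols of SB28 cells lie close together for most genes.

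Both SB28 populations were compared with astrocytes to ask how the tumor cells' transcripts differed from those of the cells that donated mitochondria. The 2 comparisons share the 3 astrocyte libraries, so that their results are given side by side and do not stand for each other. Bulk libraries cannot tell apart fewer cells of a type and less RNA per cell. In mKate2− cells 14 of the 36 genes were called higher, at an adjusted p below 0.05 and a log2 fold change over 1, where the same rule called 11.5% of the 13356 genes tested higher. It called 2 lower, Srebf1 and Scap, beside 22.4% of all genes. In mKate2+ cells 14 were called higher and 2 lower, Scap and Acacb, beside 12.2% and 22.8% of 13342 genes. With upper-quartile normalization or library size alone the mKate2+ split was 13 higher and 4 lower. Without mKate2+ replicate 2, 12 of the 14 were called higher, beside 11.9% of the 13286 genes then tested, Mvd (0.95 on the log2 scale, adjusted p = 0.0536 by edgeR) and Nsdhl (0.84) being lost, and Scap and Acss2 (-1.15) were called lower, beside 22.2%, while Acacb (-1.03, adjusted p = 0.0919) was not.

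Without the fold requirement, 19 genes rose and 5 fell in mKate2− cells and 12 missed an adjusted p of 0.05, where 29.3% and 33.8% of all genes rose and fell. In mKate2+ cells 20 rose and 6 fell, beside 28.0% and 32.1%, and without mKate2+ replicate 2 the numbers were 18 and 5. Over the 36 the median change was 0.69 (log2) in mKate2− and 0.78 in mKate2+ cells, beside -0.04 and -0.02 for all genes tested. Without mKate2+ replicate 2 the mKate2+ median was 0.61. The mKate2− libraries lay wholly above the astrocyte libraries for 19 members and wholly below for 6, against 33.8% and 37.3% of all genes. For mKate2+ cells these were 19 and 8 members, against 29.4% and 37.7%.

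**Figure D2:**
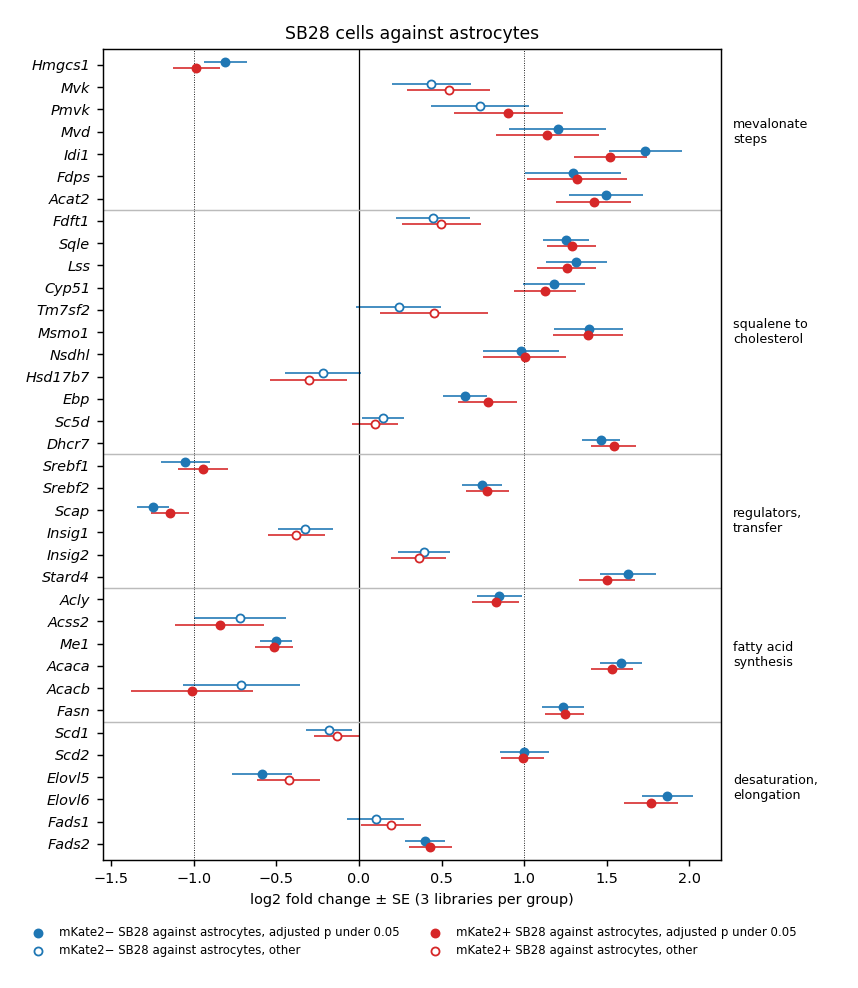
Log2 fold change against astrocytes of the 36 genes, grouped by role, in mKate2− (blue) and mKate2+ (red) SB28 cells; bars are standard errors from edgeR fits to 3 libraries per group, filled points have an adjusted p below 0.05 and dotted lines mark a log2 fold change of 1. Points run from Scap at the left to Elovl6 at the right, and Hmgcs1 is the 1 sterol enzyme with filled points left of 0.

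The sequences before the start sites were read for 2 motifs that textbooks tie to SREBP targets, the core of the sterol regulatory element as first described, TCACNCCAC, and the CCAAT box bound by NF-Y, which assists SREBPs. RefSeq promoter windows on GRCm38.p6 were given for 29 of the 36 genes, and the 250 bases before each start were searched on both strands. A CCAAT box was present in 23 of the 29 (79.3%), where 40.9% of 10100 tested genes and 37.5% of all 27025 genes with a window had one. The element core was found in 1 of the 29, Hmgcs1, beside 1.28% of tested genes. Stretches from 4 genes are shown because they differ in how the boxes are arranged, and because Hmgcs1 fell while Mvd and Fasn rose and Mvk did not pass the test. Capitals mark CCAAT or its reverse complement ATTGG and, in Hmgcs1, the element core TCACCCCAC, and each is written 5′ to 3′ on the strand of the gene.
Hmgcs1: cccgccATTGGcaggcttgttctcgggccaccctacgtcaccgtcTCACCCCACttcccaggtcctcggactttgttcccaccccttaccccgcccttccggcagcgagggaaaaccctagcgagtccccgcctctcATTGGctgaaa
Mvk: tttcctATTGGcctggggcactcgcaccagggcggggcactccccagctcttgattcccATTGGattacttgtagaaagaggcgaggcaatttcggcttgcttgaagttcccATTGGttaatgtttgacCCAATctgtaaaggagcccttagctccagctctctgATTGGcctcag
Mvd: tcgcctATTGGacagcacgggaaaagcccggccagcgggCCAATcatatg
Fasn: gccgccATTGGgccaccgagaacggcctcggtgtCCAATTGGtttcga

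These lie at chr13:119690169-119690316 (Hmgcs1, plus strand), chr5:114444090-114444265 (Mvk, plus strand), chr8:122443439-122443488 (Mvd, minus strand) and chr11:120824596-120824643 (Fasn, minus strand), all upstream of the transcribed part and outside GENCODE exons. In Hmgcs1 the element core began 137 bases before the RefSeq start, with boxes on the other strand 176 and 45 bases before the start and another, 237 bases before it, outside the stretch shown. Mvk held 5 boxes, the most of the 4. In Mvd the boxes lay on opposite strands, 60 and 27 bases before the start, and in Fasn 2 of the 3 boxes overlapped as CCAATTGG. No box was found in the windows of Acaca, Acat2, Acly, Elovl6, Fads2 and Scap, among them the gene that rose most and the gene that fell most. Of the 23 with a box, 7 were called higher and 1 lower in mKate2− cells and 15 were not called, and of the 6 without, the numbers were 3, 1 and 2. The same rule called 11.5% of all genes higher and 22.4% lower, and calls by box were not counted over all genes. A match describes the letters in the window and is not evidence of binding.

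Between acetyl-CoA and farnesyl pyrophosphate most steps were higher in SB28 cells and 1, Hmgcs1, was lower. Of the 7 genes that lead from acetyl-CoA to farnesyl pyrophosphate, 4 were called higher in each SB28 population (Acat2, Mvd, Idi1 and Fdps), beside 11.5% and 12.2% of all genes, and none passed the fold rule for lower, beside 22.4% and 22.8%. Idi1 (ENSMUSG00000058258, chr13:8885501-8892451), which turns isopentenyl into dimethylallyl pyrophosphate, was at 48.7, 74.1 and 39.8 CPM in the 3 astrocyte libraries, 185, 192 and 158 in mKate2− cells and 156, 139 and 148 in mKate2+ cells. All 6 SB28 libraries exceeded the highest astrocyte library. Idi1 differed from astrocytes by 1.74 ± 0.22 (SE) in mKate2− and 1.52 ± 0.22 (SE) in mKate2+ cells on the log2 scale (adjusted p = 0.000355 and 0.000807 by edgeR), or 3.33-fold and 2.87-fold. Acat2 (ENSMUSG00000023832, chr17:12942890-12960747), the cytosolic thiolase that condenses acetyl-CoA, was at 122, 119 and 73.8 CPM in the 3 astrocyte libraries, 311, 330 and 238 in mKate2− cells and 274, 298 and 227 in mKate2+ cells. Its groups did not overlap either, and the log2 fold change was 1.496 ± 0.22 (SE) in mKate2− cells and 1.42 ± 0.23 (SE) in mKate2+ cells, with adjusted p-values of 0.000769 and 0.00128 by edgeR. Its near-identical copy Acat3 was between 0.70 and 1.76 CPM in the 9 libraries, and the assignment of reads that fit both is uncertain.

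Mvd, the decarboxylase that makes isopentenyl pyrophosphate, had log2 fold changes of 1.20 and 1.14 (adjusted p = 0.00809 and 0.0151 by edgeR), and Fdps, the farnesyl pyrophosphate synthase, of 1.30 and 1.32 (adjusted p = 0.00562 and 0.00682 by edgeR). In GENCODE, 1124 exonic bases of Fdps are shared on the same strand with the gene model Gm43738, so that its count is less certain. The 2 kinases that act before Mvd were less far from astrocytes. Mvk, mevalonate kinase, had log2 fold changes of 0.44 and 0.54, neither past the test, and Pmvk, phosphomevalonate kinase, of 0.73 (adjusted p = 0.0617 by edgeR) and 0.90 (adjusted p = 0.0455 by edgeR). With the replicate number as a block in the fit, Pmvk passed in mKate2− cells (adjusted p = 0.00529 by edgeR). Without mKate2+ replicate 2 its mKate2+ value was 0.63 and missed the threshold (adjusted p = 0.157 by edgeR).

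Hmgcs1 (ENSMUSG00000093930, chr13:119690379-119708260), the cytosolic synthase that makes HMG-CoA and the gene with the element core in its promoter, ran the other way. It was at 222, 202 and 184 CPM in the 3 astrocyte libraries, 121, 123 and 99.6 in mKate2− cells and 114, 86.9 and 90.6 in mKate2+ cells, so that each SB28 library lay below each astrocyte library. In mKate2− and mKate2+ cells the log2 fold changes of Hmgcs1 were -0.81 ± 0.13 (SE) and -0.99 ± 0.14 (SE) (adjusted p = 0.00119 and 0.000807 by edgeR). Per kb of exon it was the most abundant mevalonate gene in astrocytes, at 44 CPM per kb, close to Mvd at 42.4 and Acat2 at 41.2, which did not differ from it beyond their spread. In mKate2− cells it stood at 24.9 CPM per kb, between Mvk at 20.5 and Pmvk at 34.4, while Acat2 stood at 115.

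The later steps held 11 genes, of which 5 were called higher in mKate2− cells (Sqle, Lss, Cyp51, Msmo1 and Dhcr7) and 6 in mKate2+ cells, where Nsdhl was added at a log2 fold change of 1.00 against 0.98. The same rule called 11.5% and 12.2% of all genes higher. None of the 11 fell at an adjusted p below 0.05 in either population, beside 33.8% and 32.1% of all genes. Dhcr7 (ENSMUSG00000058454, chr7:143823145-143848410), which reduces 7-dehydrocholesterol to cholesterol, was at 57, 54.4 and 46.8 CPM in the 3 astrocyte libraries, 143, 149 and 141 in mKate2− cells and 151, 153 and 133 in mKate2+ cells. The 6 SB28 libraries lay close together and all of them above the astrocytes. On the log2 scale the change was 1.47 ± 0.12 (SE) in mKate2− and 1.54 ± 0.14 (SE) in mKate2+ cells (adjusted p = 3.76e-05 and 9.09e-05 by edgeR).

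Msmo1, the sterol C4-methyl oxidase, was the most abundant of the later enzymes per kb in SB28 cells, at 125 and 120 CPM per kb. Its levels were 300, 377 and 213 CPM in the 3 astrocyte libraries, 835, 792 and 685 in mKate2− cells and 787, 723 and 703 in mKate2+ cells, and the log2 fold change was 1.39 ± 0.21 (SE) in mKate2− cells and 1.39 ± 0.21 (SE) in mKate2+ cells, with adjusted p-values of 0.000785 and 0.000999 by edgeR. Lss, lanosterol synthase, was at 82.4, 112 and 74.1 CPM in the 3 astrocyte libraries, 223, 255 and 184 in mKate2− cells and 224, 205 and 179 in mKate2+ cells, with log2 fold changes of 1.32 and 1.26 (adjusted p = 0.000575 and 0.000772 by edgeR). In both genes every SB28 library was above every astrocyte library. Sqle, the squalene epoxidase, had log2 fold changes of 1.26 and 1.29, and Cyp51, which demethylates lanosterol, of 1.18 and 1.13.

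The other enzymes of these later steps differed less. Ebp, the sterol isomerase, rose by 0.64 in mKate2− and 0.78 in mKate2+ cells on the log2 scale. Fdft1 (squalene synthase), Tm7sf2 (a sterol C14 reductase), Hsd17b7 (a 3-ketosteroid reductase) and Sc5d (lathosterol desaturase) did not pass the test, with log2 fold changes from -0.31 to 0.50 over both populations. With the replicate number as a block in the fit, Fdft1 passed in both populations (adjusted p = 0.0252 and 0.0253 by edgeR). Exons of Fdft1 overlap Ctsb on the opposite strand over 774 bases, those of Lss overlap an antisense transcript over 381 and those of Tm7sf2 overlap Vps51 on the same strand over 532, and whether strand was used in counting is not given in the sources used here. Of the 18 enzymes of both stretches, 11 rose in mKate2− cells, 1 fell and 6 missed the adjusted threshold, and the numbers for mKate2+ cells were 12, 1 and 5, where 29.3% and 33.8% and then 28.0% and 32.1% of all genes rose and fell.

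**Figure D3:**
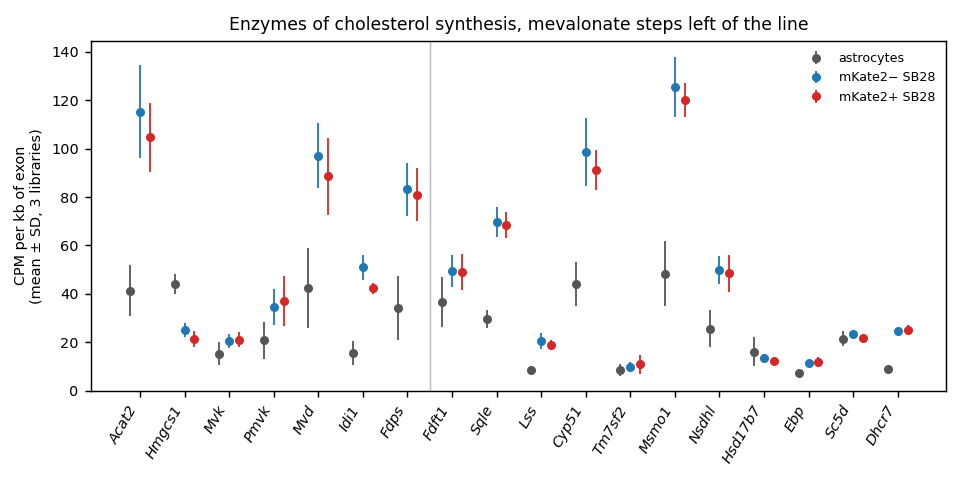
Mean level of the 18 enzymes of cholesterol synthesis in their order along the route, in CPM per kb of exon with SD over 3 libraries, for astrocytes (grey), mKate2− (blue) and mKate2+ (red) SB28 cells. Hmgcs1 is highest in astrocytes, while Acat2, Mvd, Fdps, Sqle, Cyp51 and Msmo1 stand well above the grey points in both SB28 populations.

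The 2 transcription factor genes moved in opposite directions. Srebf2 (ENSMUSG00000022463, chr15:82147181-82205379), whose product mainly drives cholesterol genes, was at 388, 363 and 323 CPM in the 3 astrocyte libraries, 581, 630 and 572 in mKate2− cells and 636, 560 and 553 in mKate2+ cells. All SB28 libraries were above all astrocyte libraries. Srebf2 differed from astrocytes by 0.75 ± 0.12 (SE) in mKate2− and 0.78 ± 0.13 (SE) in mKate2+ cells on the log2 scale (adjusted p = 0.00113 and 0.00175 by edgeR). Srebf1 (ENSMUSG00000020538, chr11:60199089-60222581), whose main product drives fatty acid genes, was at 291, 246 and 354 CPM in the 3 astrocyte libraries, 130, 152 and 143 in mKate2− cells and 158, 137 and 144 in mKate2+ cells, with no overlap in the other direction, and the log2 fold change was -1.05 ± 0.15 (SE) in mKate2− cells and -0.95 ± 0.15 (SE) in mKate2+ cells, with adjusted p-values of 0.000578 and 0.00134 by edgeR. The mKate2− value lies near the fold threshold and was -0.92 without astrocyte replicate 3, the highest of the 9 libraries.

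Scap (ENSMUSG00000032485, chr9:110333288-110384950), the escort of both factors, fell most of all members, from 202, 217 and 203 CPM in astrocytes to 80.7, 89.5 and 89.2 in mKate2− and 97.1, 76.9 and 94 in mKate2+ cells. In mKate2− and mKate2+ cells the log2 fold changes of Scap were -1.25 ± 0.10 (SE) and -1.14 ± 0.12 (SE) (adjusted p = 3.58e-05 and 0.000158 by edgeR). Over 985 exonic bases Scap overlaps an unclassified transcript on the opposite strand. Insig1 and Insig2, which hold the SCAP complex back, did not pass the test in either population. Insig1 was at 343, 386 and 261 CPM in the 3 astrocyte libraries, 263, 290 and 231 in mKate2− cells and 243, 258 and 221 in mKate2+ cells, with log2 fold changes of -0.32 and -0.38, and Insig2 at 42.1, 46.9 and 64.6 CPM in the 3 astrocyte libraries, 64.7, 71.4 and 63.4 in mKate2− cells and 63.1, 62 and 62.2 in mKate2+ cells, with 0.39 and 0.36. Astrocyte replicate 3 fell within the range of the mKate2− libraries for both genes. Stard4, a soluble sterol transfer protein, was at 50.7, 75.5 and 51.7 CPM in the 3 astrocyte libraries, 183, 197 and 164 in mKate2− cells and 166, 150 and 162 in mKate2+ cells and did not overlap between SB28 cells and astrocytes. On the log2 scale the change was 1.63 ± 0.17 (SE) in mKate2− and 1.502 ± 0.17 (SE) in mKate2+ cells (adjusted p = 0.000135 and 0.000251 by edgeR).

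In the fatty acid branch the carboxylase and the synthase rose together. Acaca (ENSMUSG00000020532, chr11:84129672-84401651), the cytosolic acetyl-CoA carboxylase, was at 72.6, 96.1 and 90 CPM in the 3 astrocyte libraries, 240, 278 and 251 in mKate2− cells and 245, 226 and 239 in mKate2+ cells. The lowest SB28 library was more than 2 times the highest astrocyte library. Acaca differed from astrocytes by 1.59 ± 0.13 (SE) in mKate2− and 1.53 ± 0.13 (SE) in mKate2+ cells on the log2 scale (adjusted p = 3.92e-05 and 7.06e-05 by edgeR). Fasn, the fatty acid synthase, had log2 fold changes of 1.24 and 1.25 (adjusted p = 0.000118 and 0.00013 by edgeR), and Acly of 0.85 and 0.83 (adjusted p = 0.00111 and 0.0019 by edgeR).

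The other suppliers of the branch were lower or not separated. Me1, the malic enzyme that yields NADPH, fell by 0.50 in mKate2− and 0.51 in mKate2+ cells on the log2 scale. Acss2, which makes acetyl-CoA from acetate, had log2 fold changes of -0.72 ± 0.28 (SE) and -0.84 ± 0.27 (SE), with adjusted p-values of 0.0538 and 0.0281 by edgeR, and 927 of its exonic bases overlap genes on the opposite strand. With the replicate number as a block in the fit, Acss2 also passed in mKate2− cells (adjusted p = 0.00833 by edgeR). Acacb was at 5.03, 2.81 and 6.49 CPM in the 3 astrocyte libraries, 3.38, 2.31 and 2.98 in mKate2− cells and 2.72, 2.21 and 1.81 in mKate2+ cells, the astrocyte and mKate2− ranges overlapping. In mKate2− and mKate2+ cells the log2 fold changes of Acacb were -0.71 ± 0.35 (SE) and -1.01 ± 0.37 (SE) (adjusted p = 0.114 and 0.0459 by edgeR), and leaving out astrocyte replicate 3 brought the mKate2+ value to -0.75.

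The desaturases and elongases did not move as 1 group. Elovl6 (ENSMUSG00000041220, chr3:129532355-129638495), which elongates palmitate to stearate, had the largest change of the 36 genes. It was at 45.6, 69.3 and 55.7 CPM in the 3 astrocyte libraries, 197, 220 and 198 in mKate2− cells and 190, 166 and 197 in mKate2+ cells, so that no SB28 library was below 2 times the highest astrocyte library. On the log2 scale the change was 1.87 ± 0.15 (SE) in mKate2− and 1.77 ± 0.16 (SE) in mKate2+ cells (adjusted p = 4.46e-05 and 0.000101 by edgeR), or 3.65-fold and 3.41-fold. Elovl5, which elongates polyunsaturated fatty acids, was at 126, 133 and 206 CPM in the 3 astrocyte libraries, 107, 101 and 98.4 in mKate2− cells and 113, 111 and 104 in mKate2+ cells and was lower in each SB28 library than in each astrocyte library. It fell in mKate2− cells (-0.59 ± 0.18 (SE) on the log2 scale, adjusted p = 0.0217 by edgeR) and missed the threshold in mKate2+ cells (-0.43 ± 0.19 (SE), adjusted p = 0.0876), while the direct comparison of the 2 populations gave an unadjusted p of 0.111 by edgeR. Without astrocyte replicate 3, its highest library, the 2 changes were -0.34 (adjusted p = 0.0146 by edgeR) and -0.20, and with any 1 of the mKate2− libraries left out the fall in mKate2− cells missed the threshold.

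Scd2 (ENSMUSG00000025203, chr19:44293674-44306864) was at 1972, 2313 and 2152 CPM in the 3 astrocyte libraries, 3809, 4909 and 4032 in mKate2− cells and 4117, 3990 and 4031 in mKate2+ cells, and the log2 fold change was 1.00 ± 0.15 (SE) in mKate2− cells and 0.99 ± 0.13 (SE) in mKate2+ cells, with adjusted p-values of 0.000714 and 0.00053 by edgeR. Its log2 fold change lay at the threshold of 1, so that it counted among the mKate2− calls and not among those of mKate2+ cells. Scd1 was at 534, 660 and 580 CPM in the 3 astrocyte libraries, 465, 601 and 483 in mKate2− cells and 512, 550 and 470 in mKate2+ cells, with overlapping groups and log2 fold changes of -0.18 and -0.13, neither past the test. The further copies Scd3 and Scd4 stayed below 1 CPM in all 9 libraries, and reads that 2 such copies share are uncertain. Fads1, the delta-5 desaturase, was at 355, 350 and 244 CPM in the 3 astrocyte libraries, 320, 377 and 312 in mKate2− cells and 355, 365 and 309 in mKate2+ cells, with log2 fold changes of 0.10 and 0.19 that did not pass the test, the first of which changed sign without astrocyte replicate 3. Fads2, the delta-6 desaturase, was at 193, 191 and 160 CPM in the 3 astrocyte libraries, 223, 256 and 236 in mKate2− cells and 261, 209 and 231 in mKate2+ cells and above astrocytes in each SB28 library, and the log2 fold change was 0.40 ± 0.12 (SE) in mKate2− cells and 0.43 ± 0.13 (SE) in mKate2+ cells, with adjusted p-values of 0.0207 and 0.0232 by edgeR.

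Of the 12 enzymes of fatty acid synthesis, desaturation and elongation, 6 rose and 2 fell in mKate2− cells, and 6 rose and 3 fell in mKate2+ cells, where 29.3% and 33.8% and then 28.0% and 32.1% of all genes did. The summed level of 4 cycling cell markers was also higher in each SB28 library than in each astrocyte library. Mki67, Top2a, Cdk1 and Ccnb1 summed to 414 ± 110 CPM in astrocytes, 1067 ± 53.2 in mKate2− and 945 ± 207 in mKate2+ cells (SD, n = 3), with Top2a the most abundant. Top2a, Cdk1 and Ccnb1 were called higher in both populations, whereas Mki67 was at 59.7, 43.6 and 127.7 CPM in astrocytes, 148, 134 and 161 in mKate2− and 107, 46.0 and 114 in mKate2+ cells and did not pass the test in mKate2+ cells (0.27 on the log2 scale, adjusted p = 0.612 by edgeR). In mKate2+ against mKate2− cells the log2 fold change of Mki67 was -0.70 (unadjusted p = 0.0332 and adjusted p = 0.923 by edgeR), and -0.41 without mKate2+ replicate 2. Their part in the lipid gene differences was not tested. The sums of 8 microglia markers (33.6, 51.9 and 54 CPM, nearly all of it Tmem119) and of 5 neuron markers (49.1, 43.7 and 40.2 CPM) were low in all groups, with Rbfox3 at 0 in all libraries. Of 6 fibroblast markers, which summed to 1344, 860 and 750 CPM, Col1a2 was the most abundant, Col3a1 ran against the sum at 26.3, 96.7 and 68.2 CPM and was called higher in both SB28 populations (1.90 and 1.45 on the log2 scale), and Dcn and Lum reached at most 2.45 and 0.512 CPM. The 10 oligodendrocyte lineage markers summed to 600, 22.3 and 18.8 CPM. In astrocytes most of this was Olig1 and Olig2, and in SB28 cells most was Pdgfra, at 11.5 CPM in mKate2− and 11.3 in mKate2+ cells. Whether these had a part in the differences was not tested.

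Other genes of lipid metabolism, 53 in all, were set beside the 36. In mKate2− cells 47 of them were tested, of which 6 were called higher and 12 lower, and in mKate2+ cells 6 were called higher and 11 lower of 47. These are 12.8% and 25.5% of those tested in mKate2− cells and 12.8% and 23.4% in mKate2+ cells, near the 11.5%, 22.4%, 12.2% and 22.8% of all genes. Of the genes called lower, 6 in each comparison (Elovl4, Nr1h3, Cyp27a1, Cyp7b1, Cyp46a1 and Fabp7) passed the filter on low counts through the astrocyte libraries alone, which fixed their direction, and among the 41 above 1 CPM in both groups 6 were called higher and 6 lower in mKate2− cells and 6 and 5 in mKate2+ cells. Those with the largest rises in mKate2− cells were Hacd1, a dehydratase of fatty acid elongation (1.81 and 2.09 on the log2 scale in mKate2− and mKate2+ cells), Acsl4, an acyl-CoA synthetase for arachidonate (1.60 and 1.52), Erlin1, which takes part in INSIG and SREBP control in the endoplasmic reticulum (1.53 and 1.55), and Acsl5, another acyl-CoA synthetase (1.51 and 1.61).

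These 53 genes fall into 5 lists, of which 4 are counted first, to be read against the same shares of all genes. For precursor supply and SREBP processing the calls were 1 higher and 0 lower of 8 tested in mKate2− cells, and 1 higher and 0 lower in mKate2+ cells. Acyl-CoA synthetases and further elongation enzymes gave 4 higher and 2 lower of 13 tested in mKate2− cells, and 4 higher and 1 lower in mKate2+ cells, and 1 of the lower calls in each is Elovl4, which leaves 1 and 0 of 12 lower among those above 1 CPM in both groups. Glycerolipid synthesis and lipid droplet genes gave 1 higher and 2 lower of 12 tested in mKate2− cells, and 1 higher and 2 lower in mKate2+ cells. Among fatty acid binding and uptake genes there were 0 higher and 2 lower of 4 tested in mKate2− cells, and 0 higher and 2 lower in mKate2+ cells, and without Fabp7 1 of 3 was lower in each.

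In the list of sterol export, storage and oxysterol genes 0 were called higher and 6 lower among 10 tested in each SB28 population, but 4 of the 6 (Nr1h3 and 3 cytochromes) are among those whose direction the filter fixed, so that the count is no measure of the list. The 3 cytochromes form or clear oxysterols. Cyp27a1, the sterol 27-hydroxylase, was at 1.59, 1.07 and 1.02 CPM in astrocytes and had 0 counts in all 6 SB28 libraries, which makes it at least 12.5-fold lower in mKate2− and at least 14.9-fold lower in mKate2+ cells when 3 counts per library are taken as the floor. Cyp7b1, an oxysterol 7-hydroxylase, was at 11.9, 12.3 and 16.7 CPM in astrocytes, with 1280 counts in all, against 7 counts in the 3 mKate2− and 9 in the 3 mKate2+ libraries. Cyp46a1, the brain's cholesterol 24-hydroxylase, was at 20.1, 11.8 and 13.3 CPM in astrocytes, 0.368, 0.669 and 1.01 in mKate2− and 0.638, 0.382 and 0.234 in mKate2+ cells, which is -4.45 and -5.09 on the log2 scale. Abca1, the exporter of cholesterol to apolipoproteins, fell by 2.16 and 2.02 on the log2 scale, and Nr1h2, a receptor for oxysterols, by 1.05 in both. Without the fold requirement 1 of the 10, Mylip, rose in each population, by 0.83 and 0.76 on the log2 scale. Another 8 fell, the 4 fixed by the filter among them, and 1, Npc2, missed an adjusted p of 0.05. Of all genes 29.3% rose and 33.8% fell in mKate2− cells, and 28.0% and 32.1% in mKate2+ cells. Outside this list, Fabp7, the fatty acid binding protein of glial progenitors and another gene that passed through the astrocyte libraries alone, was at 16.3, 17.9 and 12.5 CPM in astrocytes and at most 0.369 CPM in an SB28 library.

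The second question was whether SB28 cells that had taken up astrocyte mitochondria differed in these genes from SB28 cells of the same cultures that had not. None of the 36 was called at a fold over 1.5, an unadjusted p below 0.05 and a mean normalized count over 50, a rule that called 0.194% of the 11854 genes tested higher and 0.169% lower. At an adjusted p below 0.05 edgeR and DESeq2 each called 0 genes of the whole table. By edgeR's unadjusted p, 1 member, Idi1, was below 0.05, where 2.03% of all genes were, and by DESeq2 none was. Log2 fold changes of the members ran from -0.31 (Acacb) to 0.21 (Tm7sf2), with a median of -0.02 beside 0.0033 for all genes, and the smallest adjusted p among them was 0.923.

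For 32 of the 36 genes the 95% interval of the fold change lay within 1.5-fold in either direction, so that for these a larger difference is outside the interval. The 4 whose intervals reached beyond it were Acacb, Pmvk, Tm7sf2 and Acss2, and the widest was that of Acss2, from -0.94 to 0.68 on the log2 scale. The narrowest was that of Elovl6, from -0.30 to 0.08. For Fasn it ran from -0.24 to 0.24 and for Scd2 from -0.29 to 0.25. Without mKate2+ replicate 2 the number within 1.5-fold was 34, and the intervals of Acss2 and Acacb reached beyond it. These intervals come from fits without the replicate number as a block. They describe each gene separately and do not show that the populations were alike.

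**Figure D4:**
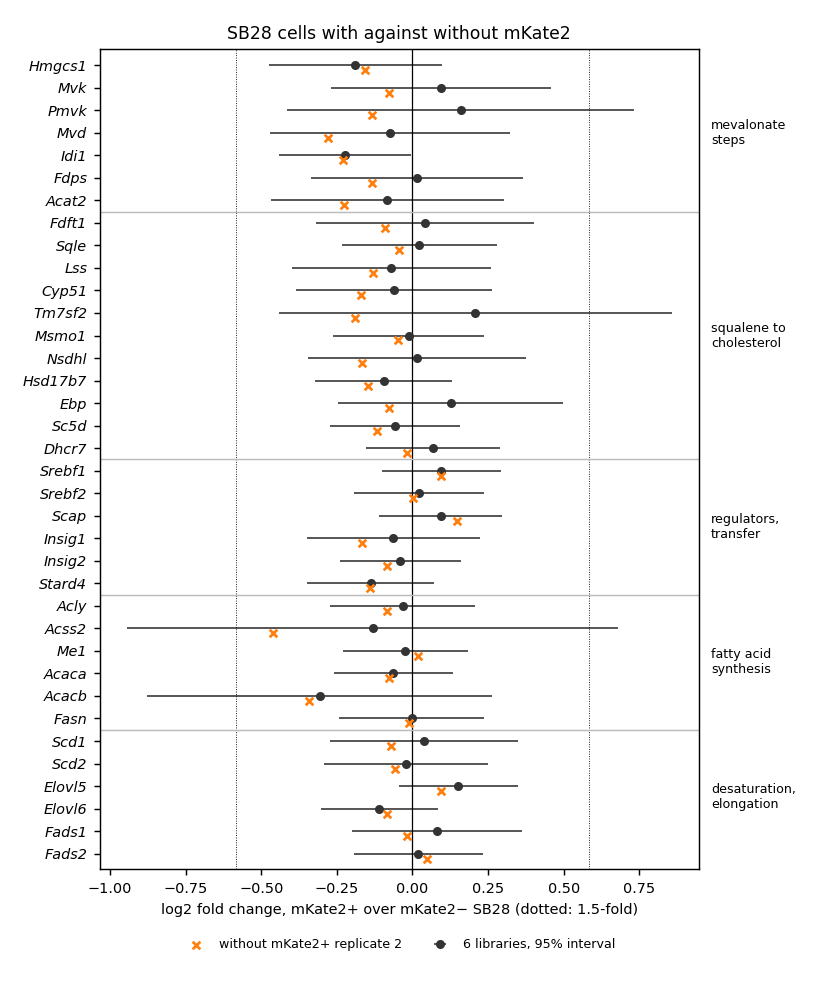
Log2 fold change of mKate2+ over mKate2− SB28 cells for the 36 genes, with 95% intervals from 3 libraries per group (black), and the same value without mKate2+ replicate 2 (orange crosses); dotted lines mark 1.5-fold. The interval of Idi1 ends just below 0, those of the other 35 genes cross 0, and 30 of the 36 crosses lie left of it.

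The 4 genes with the smallest p-values were Idi1, Elovl5, Hmgcs1 and Stard4, whose libraries are given above. Idi1 was lower in mKate2+ cells by 0.22 ± 0.09 (SE) on the log2 scale, with the 3 mKate2+ libraries at 156, 139 and 148 CPM below the 3 mKate2− libraries at 185, 192 and 158 CPM, an unadjusted p of 0.0465 and an adjusted p of 0.923 by edgeR. Elovl5 had 0.15 ± 0.08 (SE), Hmgcs1 -0.19 ± 0.12 (SE) and Stard4 -0.14 ± 0.09 (SE), with overlapping libraries and unadjusted p-values of 0.111, 0.165 and 0.167 by edgeR. The mKate2+ libraries lay wholly below the mKate2− libraries for 4 members (Idi1, Hsd17b7, Insig2 and Elovl6), beside 6.67% of all genes, and wholly above for none, beside 2.16%. Without mKate2+ replicate 2 the same 4 lay wholly below, beside 8.97% of all genes, and Scap wholly above, beside 5.67%.

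The library that stood apart by gene length shifted several of these values. With all 6 libraries, 16 members had a log2 fold change above 0 and 20 below, and 50.9% of all genes were above. Without mKate2+ replicate 2, 6 were above and 30 below, the median was -0.08 beside -0.0036 over 11801 genes, and the range ran from -0.46 (Acss2) to 0.15 (Scap). By unadjusted p, 2 members (Idi1 and Mvd) were then below 0.05, and the smallest adjusted p was 0.9998 by edgeR. Acss2, the gene with the widest interval, was at 40.2, 58.8 and 25.3 CPM in mKate2− and 36.9, 48.4 and 23.5 in mKate2+ cells, replicate 2 being the highest in both. Each mKate2+ library lay below the mKate2− library of the same number. With all 6 libraries the log2 fold change of Acss2 was -0.13 (unadjusted p = 0.718 by edgeR). With the replicate number as a block it was -0.12 (unadjusted p = 0.161 by edgeR). Of the 53 other lipid genes, 41 could be tested between the SB28 populations and none was called or had an unadjusted p below 0.05.

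A further pattern ran along the replicate numbers rather than the groups. Replicate 3 had the lowest CPM of its group in all 3 groups for 19 of the 36 genes, or 52.8%, where this held for 4.59% of the 13450 genes above 1 CPM in at least 2 libraries. Over the 2 SB28 groups it held for 20 members, or 55.6%, beside 9.36%. Of the 18 sterol enzymes 14 shared it, against 3 of the 12 fatty acid enzymes and 2 of the 6 regulators. The exceptions among the sterol enzymes were Hmgcs1, Mvk, Idi1 and Ebp. The number 3 was singled out after these values were seen, and no member had replicate 1 or replicate 2 lowest in all 3 groups, beside 3.03% and 5.61% of all genes.

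For both stretches of sterol synthesis the SD relative to the mean was widest in astrocytes, at 24.7% and 21.2% beside 7.94% to 13.3% in SB28 cells, while for the fatty acid enzymes it was widest in mKate2− cells, at 9.40% and 12.7% for synthesis and for desaturation with elongation. The 7 mevalonate genes summed to 799, 701 and 480 CPM in the 3 astrocyte libraries, to 1245, 1386 and 1060 in mKate2− and to 1167, 1251 and 990 in mKate2+ cells. The 11 later genes summed to 1320, 1500 and 972 CPM in astrocytes, 2624, 2790 and 2274 in mKate2− and 2577, 2562 and 2232 in mKate2+ cells. Replicate 3 was the lowest in each of these 6 sets, and its astrocyte library was also the one with the most Aqp4 and Aldoc. In fatty acid synthesis the astrocyte sums were 1428, 1543 and 1374 CPM. Of the 6 SB28 libraries, mKate2− replicate 2 was the highest for 22 members and mKate2+ replicate 3 the lowest for 20. Whether libraries of the same number came from the same co-culture is not given in the sources used here, and what set these levels was not tested.

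**Figure D5:**
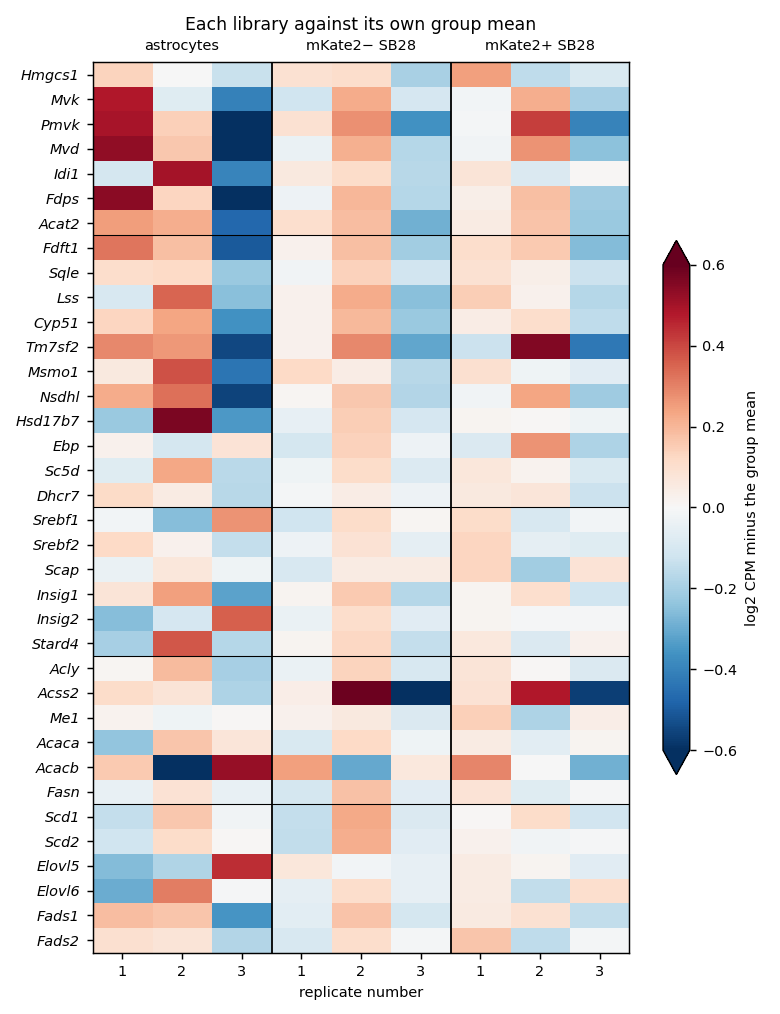
Log2 CPM of each library minus the mean of its own group for the 36 genes (rows, grouped by role as in the other plots) in the 9 libraries (columns); red is above and blue below the group mean, and colours stop at 0.6. The columns of replicate 3 are blue in all 3 groups through most sterol enzymes, most deeply in astrocytes, and fewer of the rows below show it.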

How the data were processed

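RNA-seq of 9 sorted cell libraries was analysed from the counts of reads per gene that the authors deposited, without normalization. Per the submitters' processing notes, reads were trimmed with Trimmomatic 0.36, mapped to GRCm38 with STAR 2.5.2b and counted with featureCounts (Subread 1.5.2). The annotation release and the use of strand are not given in the sources used here. The sort gates in the labels give CellTrace Violet to the tumor cells and the paper's methods give it to the astrocytes, so libraries were taken by their names. Names, positions and exonic lengths came from GENCODE M21, which named 49056 of 49315 gene IDs. Levels are CPM of the library total.

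Each comparison used the 6 libraries of its 2 groups, genes above 1 CPM in at least 2 of them, TMM normalization and edgeR 4.0.16 quasi-likelihood tests in R 4.3.3 with Benjamini-Hochberg adjustment over all genes tested. Standard errors are the fold change divided by the root of the F statistic. The procedure was tested on simulated counts. Alternatives were DESeq2 1.42.0, its size factors in edgeR, upper-quartile and library size scaling, no filter, all 9 libraries, a replicate block and each library left out.

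The 36 genes and the other lists were chosen with earlier results of these data known. Values in every library are given for the 8 largest called changes in mKate2− cells against astrocytes, the 4 smallest p-values between SB28 populations and the paralog pairs, and of the other lipid genes the 4 largest called changes in each direction are named. Those added outside this rule (Scap, Acss2, Abca1 and Nr1h2 among them) were picked after their values were seen.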

Additional observations from a re-analysis of the deposited data

How the results depend on the processing

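The number of members called higher against astrocytes was within 1.5 times of 14 under every setting tried, from 12 to 15 in mKate2− cells and from 11 to 16 in mKate2+ cells when 1 library was left out. Numbers called lower moved more, and Srebf1 and Acacb lie near the fold threshold. In mKate2− cells the number was 1 without the filter and 1 to 3 with a library left out, and in mKate2+ cells it was 4 with library size alone or upper-quartile scaling, 1 without the filter and with the replicate block, and 1 to 4 with a library left out. With 1 of 6 libraries left out, Acacb lost its mKate2+ call 5 times, Mvd and Nsdhl 2 times and Cyp51 1 time, in mKate2− cells Srebf1 lost its call 2 times and Mvd 1 time, and the adjusted p of Pmvk, Acss2 and Fads2 in mKate2+ cells missed 0.05 4 times each and that of Fads2 in mKate2− cells 2 times. Scd2 lost its mKate2− call under 9 settings, among them DESeq2 (0.99 on the log2 scale). Fads1 reversed in mKate2− cells to -0.0622 without astrocyte replicate 3 and was 0.20 without astrocyte replicate 1, the ends of its range with a library left out. Between the SB28 populations 0 members were called in each direction under all settings. Over all genes there, the 23 higher calls became 62 with DESeq2, 41 with all 9 libraries, 224 without the filter, 13 with the replicate block, 12 with over 50 counts in every library and 6 to 310 with a library left out, and the 20 lower calls became 12 with all 9 libraries, 35 without the filter, 33 with the block and 16 to 70 with a library left out. The lowest number of higher calls, 6, came without mKate2+ replicate 2, and 310 and 233 came without mKate2+ replicates 1 and 3. Summed CPM ranged with a library left out from 7785 to 8442 in astrocytes, 12544 to 13812 in mKate2− and 12490 to 13015 in mKate2+ cells, was 13346 in mKate2+ cells after TMM scaling, and fell to 5977, 9081 and 8692 without Scd2. The causes of these shifts were not tested.

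Same-numbered libraries deviated from their group means over all genes with correlations of 0.0957, 0.0244 and 0.0321 for mKate2− cells and astrocytes, -0.21, 0.01 and 0.25 for mKate2+ cells and astrocytes and -0.06, 0.11 and 0.33 for the SB28 populations, so over all genes the numbers were not taken to pair the samples, and not every library correlated best with its own number. Over the 36 members alone the correlations were higher, at 0.20, 0.38 and 0.56 for mKate2− cells and astrocytes, -0.18, 0.0652 and 0.47 for mKate2+ cells and astrocytes and 0.29, 0.63 and 0.77 for the SB28 populations. Between the SB28 populations every library then correlated best with its own number, which did not hold for every library against astrocytes. Whether the numbers mark a shared culture was not tested. With the replicate block 14 members were again called higher in both comparisons with astrocytes, 13 of them shared in mKate2− cells, where Nsdhl (1.02) replaced Scd2 (0.99), and all 14 shared in mKate2+ cells. Under the block Fdft1 passed the adjusted threshold in both (adjusted p = 0.0252 and 0.0253 by edgeR), Pmvk (0.00529) and Acss2 (0.00833) passed in mKate2− cells, and Acacb missed it in mKate2+ cells (0.0803). Between SB28 populations 1 member had an unadjusted p below 0.05 with the block, and the smallest adjusted p there was 0.783 by edgeR. The lowest count of a member in a library was 62, for Acacb, and whether depth or the spread between libraries limits its precision was not tested.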
